A study of Homo sapiens with 6 samples.

Results

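The genes described here encode 10 surface proteins through which erythroblasts, the nucleated precursors of red cells, attach to their surroundings. They are the integrin subunits ITGA4, ITGA5 and ITGB1, the immunoglobulin-family proteins CD47, ICAM4, BCAM and BSG, the scavenger receptor CD36, the hyaluronan receptor CD44 and the small glycoprotein CD99. They were chosen by name as adhesion proteins whose surface amount changes with maturation, and all 10 names were found among the 62754 gene rows of the deposited tables. The RNA came from HUDEP-2, an immortalised line of human erythroid progenitors, grown in StemSpan SFEM with 3 units per ml of erythropoietin, 50 ng per ml of stem cell factor, 1e-06 M dexamethasone and 1 µg per ml of doxycycline. One group of 3 libraries carried a lentiviral shRNA named MEN1sh2 against MEN1, the gene for menin, a subunit of MLL histone methyltransferase complexes. The other group of 3 carried a non-targeting shRNA named Controlsh, and both were selected with puromycin at 2 µg per ml from 24 h after infection for 48 h and profiled 72 h after transduction. The cells are 1 line and the MEN1 group rests on 1 hairpin, so loss of menin and any off-target action of the hairpin cannot be told apart. The labels call the replicates biological but do not say that they came from separate transductions, so p-values measure the spread between these libraries.

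Erythroblasts mature in the marrow around a central macrophage, in what is called an erythroblastic island. ITGA4 pairs with ITGB1 to form the VLA-4 integrin, which binds VCAM1 on the macrophage and fibronectin in the matrix, and ITGA5 pairs with ITGB1 to form VLA-5, a fibronectin receptor. ICAM4 binds integrins of the macrophage, CD47 signals to the macrophage receptor SIRPA that the cell should not be engulfed, BCAM binds laminin and BSG escorts lactate transporters to the membrane. Loss of ITGA4, ITGA5, CD36 and CD44 from the surface is used in flow cytometry to stage erythroid maturation.

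MEN1 itself checked the labels. Its level was 6.29, 6.44 and 6.88 TPM in the MEN1 shRNA libraries and 41.2, 39.6 and 37.1 TPM in the controls, so that 16.6% of the control mean remained. The depth inferred from the tables was 18400000 to 35800000 read pairs per library. On the first principal component, MEN1 shRNA replicate 1 lay closer to the controls (-29.97) than replicates 2 and 3 (-46.14 and -46.86), against 40.04 to 41.52 in the controls. The erythroid markers HBB, HBA1, KLF1, GATA1, ALAS2, EPOR and TFRC reached at least 96.6 TPM in every library, and HBB, beta globin, lay at 47240 to 53001 TPM with the MEN1 shRNA and 27314 to 32627 TPM in the controls. Of 6 megakaryocyte markers only ITGA2B reached 1 TPM in any library, and PF4 and PPBP are listed at 0 throughout. The megakaryocyte markers summed to 17 to 21.6 TPM with the MEN1 shRNA and 31.9 to 36.7 TPM in the controls. Most of that sum was ITGA2B. ITGB3 went the other way, at 0.316 to 0.463 TPM with the MEN1 shRNA and 0.0286 to 0.115 TPM in the controls. The 6 myeloid markers summed to 0.728 to 1.80 and 2.25 to 2.72 TPM. Most of that difference lay in LYZ, at 0.151 to 0.268 and 1.27 to 1.67 TPM. ITGAM went the other way, at 0.325 to 0.837 and 0.121 to 0.312 TPM. The 3 lymphoid markers summed to at most 0.946 TPM in any library. The 4 stromal or endothelial markers summed to at most 0.158 TPM with the MEN1 shRNA and to 0.0558 to 2.52 TPM in the controls. The highest of these sums was in control replicate 2, with COL1A1 at 2.24 TPM. The part of these shifts in the results was not tested.

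With the MEN1 shRNA, CD47, ICAM4, ITGA4 and CD44 fell and BSG, ITGA5 and CD36 rose. ITGB1 and CD99 did not pass the threshold, and BCAM was too low to be tested. Differences are log2 fold changes of TPM + 1, MEN1 shRNA minus control, fitted with limma across the 14294 genes that reached 1 TPM in 3 or more libraries, with a Benjamini-Hochberg adjusted p under 0.05 as the threshold. On this test 7 of the 9 adhesion receptor genes tested passed, 3 higher and 4 lower, where 53.6% of all genes tested passed, 22.1% higher and 31.5% lower. The same 7 had groups that did not overlap, which held for 61.8% of all genes tested. The median absolute log2 fold change was 0.40 over the 9 genes and 0.37 over all genes, and the median signed value was -0.11 against -0.07. The share of these genes that changed was therefore read against a transcriptome in which most genes tested passed, and nothing was taken from the count alone.

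**Figure D1:**
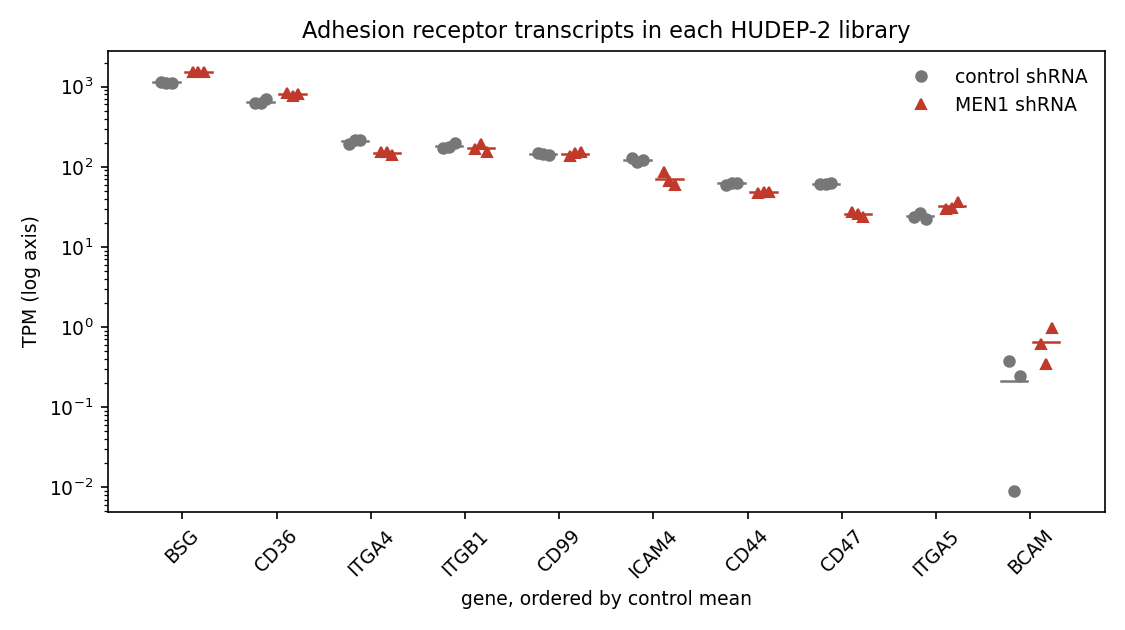
TPM of each adhesion receptor gene (log axis) in the 3 control shRNA libraries (circles) and the 3 MEN1 shRNA libraries (triangles), with horizontal lines at group means. CD47 lies between 23.7 and 26.9 TPM in the MEN1 shRNA libraries and between 60.3 and 61.9 TPM in the controls, and BCAM stays under 1 TPM in all 6.

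Among the integrin subunits the alpha chains moved in opposite directions over a beta chain that did not pass the threshold. ITGA4, the alpha chain of VLA-4 (ENSG00000115232, chromosome 2, 181457202 to 181538940, plus strand), had TPM values of 152, 151 and 142 under the MEN1 shRNA, against 194, 215 and 213 under the control shRNA. All 3 MEN1 shRNA libraries were low, tightly grouped and clear of the controls. The mean fell from 207 ± 11.9 to 148 ± 5.59 TPM (SD, n = 3 each), a log2 fold change of -0.48 (SE 0.0628, adjusted p 0.000511 in limma). Reads covered each base 193 to 490 times on average.

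ITGA5, the alpha chain of VLA-5 (ENSG00000161638, chromosome 12, 54395261 to 54419266, minus strand), had TPM values of 29.5, 30.5 and 36.7 under the MEN1 shRNA, against 23.6, 26.3 and 22.4 under the control shRNA. The groups did not overlap, although the gap between them was narrow and replicate 3 was the highest of the MEN1 shRNA libraries. The mean rose from 24.1 ± 1.99 to 32.2 ± 3.90 TPM, with a log2 fold change of 0.40 ± 0.104 (SE) and a limma adjusted p of 0.0132. This was the weakest of the 7 calls by adjusted p, and over all alternatives its limma adjusted p ran from 0.00348 to 0.0467.

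ITGB1, the beta chain that both pair with (ENSG00000150093, chromosome 10, 32887273 to 33005792, minus strand), had TPM values of 168, 192 and 152 under the MEN1 shRNA, against 173, 179 and 198 under the control shRNA. The groups overlapped, with MEN1 shRNA replicate 2 above 2 of the 3 controls. In limma the log2 fold change was -0.11 with an SE of 0.0951 and an adjusted p of 0.366, a difference within the spread between replicates.

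Ratios within a library do not depend on how libraries are scaled, so the integrin chains were also set against each other. The TPM of ITGA4 was 8.20, 8.16 and 9.52 times that of ITGA5 in the control libraries and 5.14, 4.94 and 3.86 times in the MEN1 shRNA libraries. The balance of the alpha chains thus moved towards ITGA5 in every MEN1 shRNA library, by -0.90 on the log2 scale. ITGA4 stood at 1.12, 1.2 and 1.08 times ITGB1 in the controls and at 0.904, 0.786 and 0.934 times with the MEN1 shRNA, a log2 difference of -0.37. ITGA5 stood at 0.136, 0.147 and 0.113 times ITGB1 in the controls and at 0.176, 0.159 and 0.242 times with the MEN1 shRNA, a log2 difference of 0.53. None of these 3 ratios overlapped between groups, and each gave 0.1 as its exact permutation p (2-sided), which is the floor for 3 against 3 libraries, also after adjustment over the 4 ratios computed. MEN1 shRNA replicate 3 had the highest ITGA5 value relative to ITGB1, and without it the ITGA5 to ITGB1 difference was 0.35. These levels are on TPM. On gene coverage, another deposited measure, ITGA5 lay above ITGB1 in both groups.

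**Figure D2:**
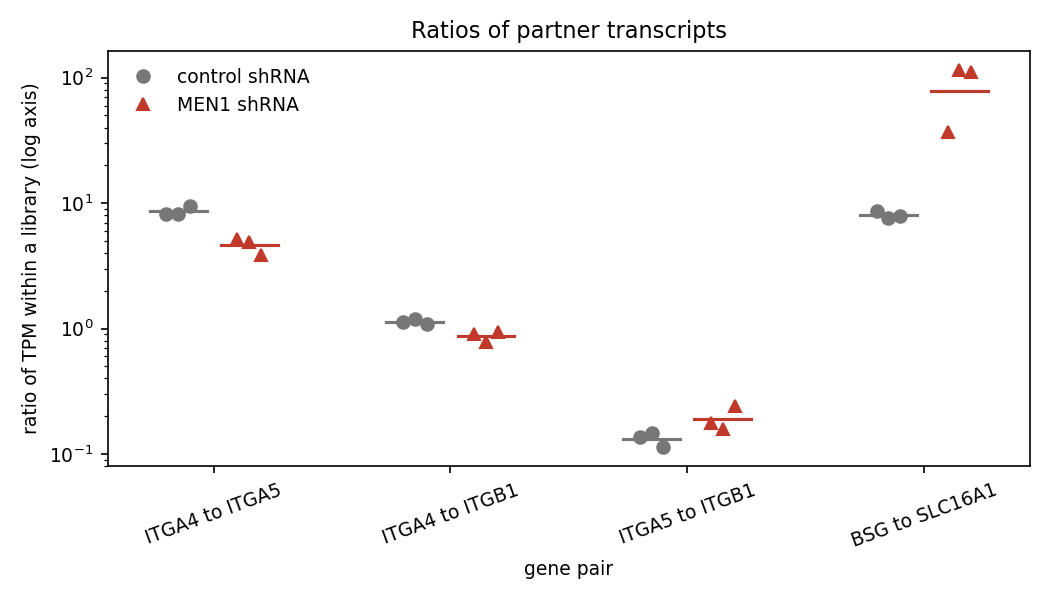
Ratio of TPM between 2 genes within each library (log axis) for 3 integrin pairs and for BSG with the lactate transporter SLC16A1, with lines at geometric means of the 3 libraries of a group. The ITGA4 to ITGA5 ratio is 8.16 to 9.52 in the controls and 3.86 to 5.14 with the MEN1 shRNA, and MEN1 shRNA replicate 1 has the lowest BSG to SLC16A1 ratio of its group.

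Of 23 other integrin subunits, 7 passed the filter on low values, 1 of them (ITGB5) only through the MEN1 shRNA libraries. Of the other 6, 3 were higher, 2 lower and 1 not past the threshold, beside 22.1% higher and 31.5% lower among all genes tested, and their median log2 fold change was 0.12. ITGB7, which can also pair with ITGA4, rose from 16.1 ± 0.889 to 40.3 ± 6.98 TPM (1.26 on the log2 scale, limma adjusted p 0.000176). ITGB4, the partner chain of ITGA6 in a laminin receptor, rose from 21.1 ± 1.04 to 37.5 ± 1.82 TPM (0.80, adjusted p 0.000109), while ITGA6 itself was below the filter. ITGB5, a partner of ITGAV, was at 0.0539, 0.151 and 0.0914 TPM in the controls and at 2.21, 2.40 and 2.05 TPM under the MEN1 shRNA. It had to differ in order to pass the filter and its fold depends on the pseudocount, so its values are given with no fold and no test. ITGAV, a chain that ICAM4 is known to bind, rose from 4.19 ± 0.328 to 7.22 ± 0.410 TPM (0.66, adjusted p 0.00140). ITGA2B, the platelet chain (-0.83), and ITGB2, the leukocyte beta chain (-0.91), were the 2 that fell, with adjusted p-values of 0.000456 and 0.00174.

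The proteins that link integrins to actin or switch them on did not move one way. Of 27 listed, 24 passed the filter, 2 of them (FERMT1 and ACTN1) only through the controls. Of the other 22, 10 were higher, 7 lower and 5 not past the threshold, with a median log2 fold change of 0.16, beside 22.1% higher and 31.5% lower among all genes. PTK2B, an adhesion-linked tyrosine kinase, rose from 53.8 ± 3.21 to 158 ± 16.5 TPM (1.53 on the log2 scale, limma adjusted p 2.64e-05). PXN, the scaffold paxillin, rose from 19.3 ± 0.544 to 34.6 ± 2.66 TPM (0.81, adjusted p 0.000134). The 2 activators that bind the beta tail directly and are the main forms in blood cells, TLN1 (talin) and FERMT3 (kindlin), rose by 0.61 and 0.81 on the log2 scale, with adjusted p-values of 0.000319 and 0.000225.

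CD47 showed the largest log2 fold change of the 9 genes tested. It encodes the marker that restrains engulfment by macrophages (ENSG00000196776, chromosome 3, 108043091 to 108091862, minus strand), and it had TPM values of 26.9, 25.6 and 23.7 under the MEN1 shRNA, against 60.3, 60.4 and 61.9 under the control shRNA. Each group was tight and the gap between them exceeded the level that remained. The mean fell from 60.9 ± 0.867 to 25.4 ± 1.58 TPM, to 41.7% of the control, a log2 fold change of -1.23 (SE 0.0678, adjusted p 2.43e-05 in limma). Mean coverage was 28.2 to 42.7 reads per base with the MEN1 shRNA and 87.1 to 137 in the controls. Of the 4499 genes that were lower, 12.6% fell by more than CD47 did.

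On red cells CD47 is carried in the Rh complex with RHAG, the Rh proteins and protein 4.2, and the genes of these other proteins went the other way. RHAG rose from 594 ± 18.3 to 973 ± 163 TPM (0.70 on the log2 scale, limma adjusted p 0.00168) and EPB42, which encodes protein 4.2, from 270 ± 17.9 to 452 ± 10.6 TPM (0.74, adjusted p 8.34e-05). RHCE rose from 8.77 ± 2.02 to 62.3 ± 4.86 TPM (2.71, adjusted p 2.63e-05) and RHD from 8.39 ± 0.192 to 41.6 ± 9.48 TPM (2.15, adjusted p 5.39e-05). RHD and RHCE are close paralogs, so the division of reads between them is uncertain. ICAM4, described next, is also found in this complex and was lower, like CD47.

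ICAM4, the Landsteiner-Wiener blood group protein (ENSG00000105371, chromosome 19, 10286955 to 10288522, plus strand), had TPM values of 86.6, 65.9 and 59.1 under the MEN1 shRNA, against 128, 116 and 122 under the control shRNA. Replicate 1 was the highest of the MEN1 shRNA libraries, still below every control. The mean fell from 122 ± 5.63 to 70.5 ± 14.3 TPM, with a log2 fold change of -0.80 ± 0.131 (SE) and a limma adjusted p of 0.00150, and without MEN1 shRNA replicate 1 the value was -0.96. An antisense gene, ICAM4-AS1, overlaps it at 4.58 TPM on average with the MEN1 shRNA and 5.83 in the controls. The libraries were made with a directional kit, but whether strand was used in quantification is not given in the sources used here.

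Of the other intercellular adhesion molecules tested, ICAM5 (log2 fold change -0.49, adjusted p 0.0151) and ICAM3 (-0.29, adjusted p 0.0487) also fell in limma. ICAM2 (-0.17, adjusted p 0.0722) and ICAM1 (0.38, adjusted p 0.0536) did not pass the threshold. The differences between these genes were not tested against each other.

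BCAM, the Lutheran blood group glycoprotein (ENSG00000187244, chromosome 19, 44809071 to 44821421), stayed below 1 TPM in every library. It had TPM values of 0.618, 0.348 and 0.985 under the MEN1 shRNA, against 0.378, 0.00911 and 0.242 under the control shRNA, with coverage of at most 0.871 reads per base. The groups overlapped, and the gene entered no test with the filter. With no filter limma gave a log2 fold change of 0.44 ± 0.189 (SE) and an adjusted p of 0.197. No difference in BCAM was detected at this coverage, and its absence cannot be inferred.

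BSG, also called basigin or CD147 (ENSG00000172270, chromosome 19, 571277 to 583494, plus strand), was the most abundant of the 10 transcripts. Its TPM was 1507, 1501 and 1536 under the MEN1 shRNA, against 1157, 1113 and 1119 under the control shRNA. Every MEN1 shRNA library was high and the groups were far apart relative to their spread. The mean rose from 1129 ± 23.9 to 1514 ± 18.5 TPM, with a log2 fold change of 0.42 ± 0.0495 (SE) and a limma adjusted p of 0.000310, a small rise in relative terms, since 72.7% of the genes that rose did so by more. BSG-AS1 overlaps BSG on the opposite strand and was also higher, at 30.5 against 20.7 TPM on average.

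SLC16A1, the lactate transporter MCT1 that BSG escorts, went the other way. It had TPM values of 40.8, 12.9 and 13.7 under the MEN1 shRNA, against 134, 145 and 142 under the control shRNA, with a log2 fold change of -2.79 ± 0.382 (SE) and a limma adjusted p of 0.000644. MEN1 shRNA replicate 1 lay above the other two of its group and below every control, and without it the log2 fold change was -3.31. The TPM of BSG was 8.60, 7.67 and 7.87 times that of SLC16A1 in the controls and 36.9, 116 and 112 times with the MEN1 shRNA. The difference in the log2 ratio was 3.29, and 3.83 without MEN1 shRNA replicate 1, with an exact permutation p of 0.1. SLC16A3 and SLC16A7, which encode other lactate transporters, did not pass the threshold (log2 fold changes 0.19 and -0.12, adjusted p 0.258 and 0.441). NPTN, which encodes neuroplastin, a relative of BSG, rose from 17.7 ± 1.46 to 35.9 ± 2.76 TPM (0.98, adjusted p 0.000118).

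The promoter stretches are shown for CD47 and ICAM4, which fell most, and for BSG, the rise with the lowest adjusted p. The stretch of ICAM4 differs from the other stretches shown in base composition and in the motifs it holds, while those shown for CD47 and BSG are alike. All come from RefSeq (GRCh38.p14), from 250 bases before an annotated start to 20 after it, on the strand of the gene. For BSG the window with the most CG dinucleotides of its 2 annotated starts is shown. Capitals mark GATA motifs (the letters GATA preceded by A or T and followed by A or G) and KLF motifs (CCNCNCCC), each searched on both strands, and overlapping matches run together.
CD47, chr3:108091012-108091281, minus strand: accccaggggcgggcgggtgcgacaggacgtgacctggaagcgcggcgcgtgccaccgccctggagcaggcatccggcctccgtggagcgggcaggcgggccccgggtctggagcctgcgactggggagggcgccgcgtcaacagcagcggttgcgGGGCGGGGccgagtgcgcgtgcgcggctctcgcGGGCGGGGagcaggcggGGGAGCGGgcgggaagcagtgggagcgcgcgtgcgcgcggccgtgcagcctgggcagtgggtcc
ICAM4, chr19:10286705-10286974, plus strand: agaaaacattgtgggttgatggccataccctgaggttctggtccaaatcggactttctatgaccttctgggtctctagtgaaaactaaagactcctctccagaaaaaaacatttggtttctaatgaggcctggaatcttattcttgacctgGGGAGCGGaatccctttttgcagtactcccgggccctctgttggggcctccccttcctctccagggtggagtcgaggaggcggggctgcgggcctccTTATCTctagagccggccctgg
BSG, chr19:572346-572615, plus strand: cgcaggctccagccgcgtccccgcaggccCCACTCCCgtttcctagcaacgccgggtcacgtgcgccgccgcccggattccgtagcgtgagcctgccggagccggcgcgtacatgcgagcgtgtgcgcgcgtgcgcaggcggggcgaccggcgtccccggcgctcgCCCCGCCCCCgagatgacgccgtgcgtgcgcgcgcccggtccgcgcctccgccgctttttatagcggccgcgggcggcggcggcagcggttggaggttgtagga

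Over the full 300-base windows, CD47 held 45 CG dinucleotides and BSG 54, more than 96.5% and 99.5% of all 35116 RefSeq windows. ICAM4 held 10, against a median of 14. The BSG window was chosen for its CG count, so its rank and its likeness to CD47 in CG content hold for that window only. The other BSG window held 16, more than 52.5% of all windows. ICAM4 had 1 GATA match, which spans the annotated start, while CD47 and BSG had 0. A GATA match was present in 25.0% of all windows and a KLF match in 56.2%. All 10 genes had at least 1 window, 19 in all, some of which overlap. GATA matches lay in 4 of the 19 windows, from 3 genes (CD36, ITGB1 and ICAM4), and KLF matches in 16 of the 19. The 19 count the same CD99 window on both X and Y, so they are not independent. A match is a description of these letters only.

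CD36, a receptor for long-chain fatty acids and thrombospondin (ENSG00000135218, chromosome 7, 80369575 to 80679277, plus strand), had TPM values of 843, 765 and 814 under the MEN1 shRNA, against 627, 628 and 701 under the control shRNA. The groups did not overlap. A short unnamed gene on the opposite strand within its span (ENSG00000229436) was also higher, at 21.6 against 12 TPM on average. The mean of CD36 rose from 652 ± 42.1 to 808 ± 39.7 TPM, with a log2 fold change of 0.31 ± 0.0669 (SE) and a limma adjusted p of 0.00581. On the deposited gene coverage, rescaled to the same total in each library, the value was 0.18 with an adjusted p of 0.0680, so this call rested on the measure. Its adjusted p over all alternatives ran from 0.00227 to 0.0680. SCARB1, a scavenger receptor of the same family, fell from 81.7 ± 1.57 to 37.0 ± 5.18 TPM (-1.13, adjusted p 0.000105).

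CD44, the receptor for the matrix sugar hyaluronan (ENSG00000026508, chromosome 11, 35138882 to 35232402, plus strand), had TPM values of 47.1, 48.7 and 48.6 under the MEN1 shRNA, against 60.0, 62.1 and 63.6 under the control shRNA. The spread within each group was small and the groups were apart. The mean fell from 61.9 ± 1.82 to 48.1 ± 0.856 TPM, with a log2 fold change of -0.36 ± 0.0571 (SE) and a limma adjusted p of 0.00138. CD44 is tied to actin by the related proteins ezrin, radixin and moesin, and these differed among themselves. MSN, for moesin, fell from 380 ± 28.7 to 189 ± 7.10 TPM (-0.999, adjusted p 4.16e-05) and RDX, for radixin, rose from 40.8 ± 2.30 to 68.8 ± 8.72 TPM (0.73, adjusted p 0.000650). EZR, for ezrin, was at 451 ± 5.12 and 483 ± 55.4 TPM (0.09, adjusted p 0.383).

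CD99 lies in the pseudoautosomal region, so the tables hold 2 rows for it with the same span (2691187 to 2741309) on chromosomes X and Y. The rows carry nearly the same values, and reads from the identical copies cannot be assigned to either. In the row with the higher mean (ENSG00000292348), CD99 had TPM values of 135, 147 and 155 under the MEN1 shRNA, against 147, 143 and 140 under the control shRNA. The groups overlapped. In limma the log2 fold change was 0.02 with an SE of 0.0638 and an adjusted p of 0.810. The row for the other chromosome had means of 145 and 142 TPM. The sign was negative with quantile normalization and without MEN1 shRNA replicate 3, so no direction is given.

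**Figure D3:**
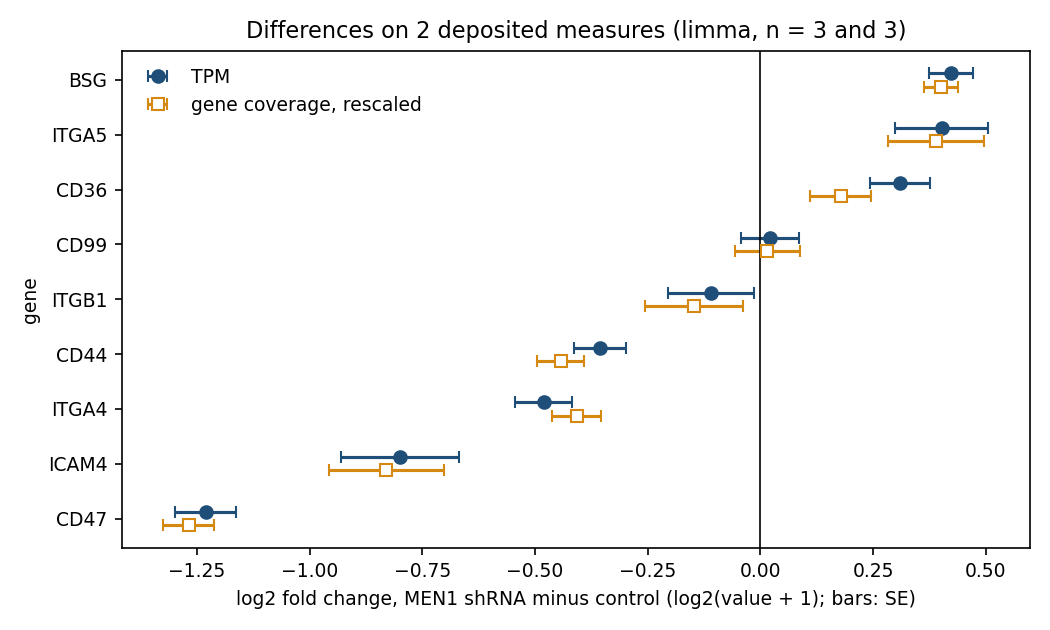
Log2 fold change with its standard error (limma, MEN1 shRNA minus control, n = 3 and 3) for the 9 adhesion receptor genes tested, from TPM (filled circles) and from gene coverage rescaled to a common total (open squares). CD47 lies at -1.23 and -1.27 on the 2 measures, and CD36 differs most between them among the genes past the threshold, at 0.31 and 0.18.

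Levels of different genes were compared with care, because the 2 deposited measures did not rank them alike. By control mean TPM the order was BSG, CD36, ITGA4, ITGB1, CD99, ICAM4, CD44, CD47, ITGA5 and BCAM. ITGA4 overlapped with ITGB1, and CD44 with CD47, and each other gene lay above the next in all 3 control libraries. By rescaled gene coverage ICAM4 came second, then ITGA4, with CD36 in sixth place and ITGB1 in ninth. In genes with a single annotated transcript the ratio of coverage to FPKM is nearly constant within a library. Relative to that constant the ratio was 87.4% to 89.6% for ICAM4, but 4.70% to 4.98% for ITGB1 and 2.96% to 3.28% for CD36, which have 19 and 24 transcripts in GENCODE v29. It was 31.2% to 34.2% for CD44, which has 39, and the reason for these differences was not tested. Levels of ITGB1 and CD36 against other genes therefore depend on the measure, and so do the ratios of ITGA4 and ITGA5 to ITGB1. By mean rescaled coverage ITGA5 lay above ITGB1, at 28.9 against 20.8 in the controls and 38.4 against 18.8 with the MEN1 shRNA.

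As a sum, the 10 transcripts took 0.254% to 0.264% of all TPM in the controls and 0.293% to 0.300% with the MEN1 shRNA (summed TPM 2585 ± 51.2 and 2963 ± 34.6, exact permutation p 0.1). BSG and CD36 made up 68.9% ± 0.485 of that sum in the controls and 78.4% ± 0.893 with the MEN1 shRNA. The share of CD47 went from 2.35% ± 0.0170 to 0.856% ± 0.0506 and that of ITGA4 from 8.02% ± 0.457 to 5.00% ± 0.198. By rescaled coverage, in which ITGA4 and ICAM4 weigh more, the sum was lower with the MEN1 shRNA, by -0.08 on the log2 scale against 0.20 for TPM. No direction is therefore given for the family as a whole.

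The ligands of these receptors were mostly low or did not pass the threshold. Of 16 listed, 7 passed the filter, 1 rose and 1 fell, so that 28.6% were called where 53.6% of all genes were. LAMC1, a laminin chain, rose from 17.2 ± 1.44 to 25.8 ± 1.44 TPM (0.56 on the log2 scale, limma adjusted p 0.00127). PPIB, cyclophilin B, which binds BSG, fell from 336 ± 102 to 189 ± 38.1 TPM (-0.80, adjusted p 0.0174), a call lost without MEN1 shRNA replicate 2 (adjusted p 0.0580), with no filter (0.0806) and on coverage (0.0568). PPIA, cyclophilin A, another ligand of BSG, did not pass (0.075, adjusted p 0.256), but rose with quantile normalization (0.31, adjusted p 0.00103), with median-of-ratios scaling and without globin and mitochondrial genes. LAMA5, the laminin chain that BCAM binds, was at 9.53 ± 1.90 and 10.4 ± 0.850 TPM (0.12, adjusted p 0.514), with a negative sign when control replicate 1 was left out. VCAM1, the macrophage ligand of VLA-4, is listed at 0 in 5 libraries and at 0.0199 TPM in 1 control.

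Of 22 membrane partners 20 passed the filter, 1 of them (CD9) only through the MEN1 shRNA libraries. Of the other 19, 9 were higher, 6 lower and 4 not past the threshold, beside 22.1% higher and 31.5% lower among all genes, with a median log2 fold change of 0.19. EPB41, for protein 4.1 of the red cell skeleton, which binds CD44, rose from 114 ± 6.60 to 262 ± 10.1 TPM (1.19, adjusted p 2.37e-05 in limma). CD9, a tetraspanin that associates with integrins, reached 8.85, 18.2 and 15.1 TPM under the MEN1 shRNA and is listed at 0 in all 3 controls, so neither a fold nor a test is given. CD81, a related tetraspanin, fell from 72.3 ± 4.05 to 25.0 ± 3.22 TPM (-1.50, adjusted p 3.51e-05).

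Of 21 other adhesion proteins listed, 15 passed the filter, 1 of them (L1CAM) only through the MEN1 shRNA libraries. Of the other 14, 3 were higher, 6 lower and 5 not past the threshold, beside 22.1% higher and 31.5% lower among all genes, with a median of -0.18. Besides SCARB1, the fall with the lowest adjusted p was that of SELPLG, the ligand of P-selectin, from 78.5 ± 7.49 to 27.3 ± 8.13 TPM (-1.52, adjusted p 0.000362 in limma). F11R, a junctional adhesion molecule, rose from 27.7 ± 1.37 to 65.7 ± 3.97 TPM (1.22, adjusted p 2.81e-05 in limma) and CD58, the ligand of CD2, from 39.8 ± 2.24 to 78.0 ± 2.7 TPM (0.95, adjusted p 4.16e-05). L1CAM, a neural adhesion protein, had TPM values of 4.11, 8.44 and 8.88 under the MEN1 shRNA, against 0.0156, 0.0240 and 0.0370 under the control shRNA, and is given no fold and no test for the same reason as ITGB5. MAEA, the erythroblast macrophage attacher, was at 84.6 ± 1.25 TPM in the controls and 78.3 ± 0.565 TPM with the MEN1 shRNA (-0.11, adjusted p 0.107).

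**Figure D4:**
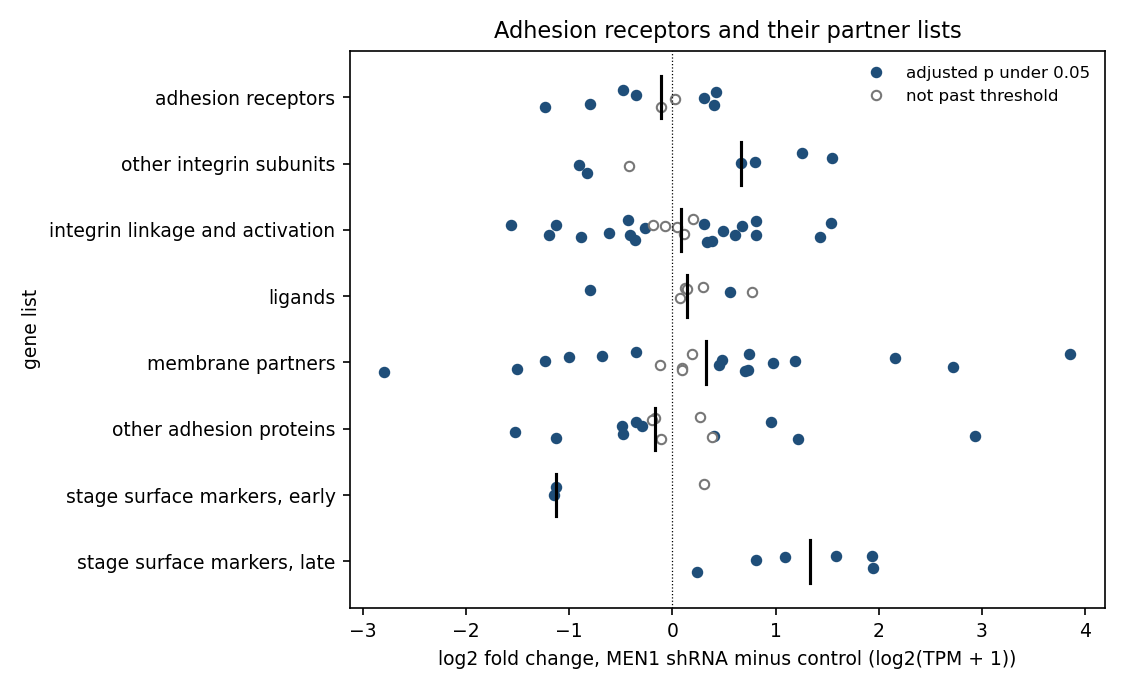
Log2 fold change (MEN1 shRNA minus control, log2(TPM + 1)) of each tested gene in the adhesion receptors and 7 partner lists, with filled points for an adjusted p under 0.05 in limma, open points for the rest and black bars at list medians. The 6 late stage markers all lie above 0, with a median of 1.33, and the adhesion receptors spread to both sides of 0. In the partner lists 5 points are genes that reached 1 TPM in 1 group only, and their positions depend on the pseudocount. Their fill is not used as a test. The bars include them, and lie at 0.66 for other integrin subunits, 0.08 for integrin linkage and 0.32 for membrane partners. Without these genes the medians are 0.12, 0.16 and 0.19.

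Since the amounts of these receptors change with maturation, the transcripts of surface proteins used to stage it were set beside them. All 6 late transcripts rose, where 22.1% of all genes tested did, with a median log2 fold change of 1.33, although KEL (0.24, adjusted p 0.0206) lost its call under 5 alternatives (adjusted p 0.0506 to 0.301). Those with the lowest adjusted p were SLC4A1, the anion exchanger band 3 (1.93), GYPB, glycophorin B (1.95), and XK (1.09), with adjusted p-values of 8.37e-06, 1.37e-05 and 2.52e-05 in limma. The level of GYPB is uncertain, since near-identical sequence elsewhere can take its reads. Of 5 early transcripts 3 were tested, and KIT, the stem cell factor receptor, and ENG, endoglin, fell by 1.15 and 1.13 on the log2 scale with adjusted p-values of 2.56e-05 and 0.000266, while CXCR4 did not pass (0.30, adjusted p 0.103). Of the 4 receptors whose surface loss marks maturation, ITGA4 and CD44 were lower, and CD36 and ITGA5 were higher. In bulk RNA, fewer cells of a stage and less RNA per cell cannot be told apart, and the part of such a shift in the values of the adhesion receptor genes was not tested.

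Genes whose pattern was most like that of the extremes were named by correlation of log2(TPM + 1) over the 6 libraries. CD47 had the largest fall and BSG the largest rise (0.42 against 0.40 for ITGA5), an order of the rises that is within their errors and turns without MEN1 shRNA replicate 1 (0.43 and 0.46), MEN1 shRNA replicate 2 (0.429 and 0.437) or control replicate 2 (0.41 and 0.46). For BSG these were MRGPRE, GYPB and EPN2 (r = 0.9994, 0.9992 and 0.9988), and for CD47 POFUT1, TAGLN2 and LRP5 (r = 0.9993, 0.9992 and 0.9992). POFUT1 went from 32.2 ± 0.925 to 16.1 ± 0.641 TPM and TAGLN2 from 736 ± 14.5 to 281 ± 18 TPM. With 2 groups of 3 such values are common: 22.3% of the 9887 genes compared exceeded an r of 0.95 with CD47, and 11.9% with BSG. The points share the 2 groups, so this likeness describes the group difference and carries no p.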

How the data were processed

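Poly(A) RNA libraries made with a directional kit were deposited as 1 gene table per library, 6 in all. The submitters' processing notes name FastQC, Trimmomatic, STAR 2.7.1a, Picard 2.20.4 and StringTie 2.0.4 and the build hg38. The annotation and the strand setting are not stated in the sources used here. TPM values, as the authors deposited them, total 1000000 per library, the deposited FPKM values are a fixed multiple of them within a library, and the deposited coverage, per the file headers, is a signal per exonic base not scaled for depth. In control replicate 2, negative residues of at most 5e-06 in 2 genes were set to 0.

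The tables give no read counts, and no count model was fitted. Depth was inferred from the ratio of coverage to FPKM in genes with a single GENCODE v29 transcript, assuming 302 bases per read pair. TPM is relative, so that abundant transcripts that rise lower the rest, and it depends on how reads were divided among isoforms. Limma 3.58.1 in R 4.3.3 was fitted to log2(TPM + 1), which understates changes of low genes, over all genes that reached 1 TPM in 3 or more libraries (lmFit, then eBayes with trend, 2-sided, Benjamini-Hochberg over all genes tested). The fit was tested on simulated data. Ratios and sums were compared with exact permutation tests. Python 3.11.15, pandas 2.3.3, NumPy 2.4.6 and matplotlib 3.10.9 were used for the rest.

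The genes and lists were chosen with earlier results of these data known. The rule named MEN1, the 10 genes, at most the 3 called genes of lowest adjusted p per list, and 3 genes most like the largest rise and fall with a mean TPM of 5 or more. Some genes that the rule names are not reported here. Other genes named were chosen by role or after their values were seen. Alternatives were other pseudocounts, filters, scalings, FPKM, coverage, a variance model without trend, the replicate number as a block, and leaving out each library.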

Additional observations from a re-analysis of the deposited data

How the results depend on the processing

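Of 154 comparisons of the 9 adhesion receptor genes with an alternative, 151 had the same sign and the same call as reported. The exceptions were CD36 on gene coverage (0.18, adjusted p 0.0680) and CD99, never past the threshold, which turned to -0.01 with quantile normalization and ran from -0.023 to 0.072 with 1 library left out, the lowest without MEN1 shRNA replicate 3. The 4 falls and 3 rises were called under every alternative but coverage, with 2 rises. Coverage, and the settings for partner genes, were added after the data were seen. The log2 difference of the summed level was 0.23 with FPKM, 0.29 with median-of-ratios scaling, 0.26 without globin and mitochondrial genes and -0.083 on coverage, and that of ITGA4 to ITGB1 was -0.25 on coverage. Their cause was not tested. Among 643 comparisons of 38 other genes, 631 kept sign and call, 8 lost the call (PPIB 3, KEL 5), 3 gained it (PPIA) and 1 turned, LAMA5 at -0.031 without control replicate 1. The 38 include ITGB5, CD9 and L1CAM, which had to differ in order to pass the filter. Their kept calls are in the 631 but say nothing about stability.

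With 1 library left out, 6577 to 7542 genes passed, 3 receptor genes were higher and 4 lower, and 33 to 37 partner genes were higher and 21 to 26 lower, against 35 and 26 with all libraries, 3 and 2 of which reached 1 TPM in 1 group only. The log2 differences ran from -0.98 to -0.77 for ITGA4 to ITGA5, -0.42 to -0.30 for ITGA4 to ITGB1, 0.35 to 0.65 for ITGA5 to ITGB1, 3.00 to 3.83 for BSG to SLC16A1 and 0.19 to 0.21 for the sum. Scaling moved the share of called genes that were higher from 41.2% to at most 49.5%. Libraries with the same replicate number did not deviate together (correlations 0.0171, -0.0265 and -0.0124), and not every library correlated best with its own number. With the replicate block 7012 genes passed, against 7657, and the calls of the 9 genes did not change. Coverage limits BCAM.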
